A study of Rattus norvegicus with 31 samples.

Results

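Ribosomal protein genes and genes named as their copies were described in the left ventricle of the rat heart. The names were Rpl37 and its copy Rpl37l1, Rps18 and its copy Rps18l1, and Rps20. How alike the transcripts of a parent and its copy are was not measured, since their sequences were not used here. The names were picked from the difference between the progenitor strains SHR and BN-Lx, so their values in that contrast are given as a description and no test is attached to them. A member was any gene or transcript that carried 1 of these 5 names in the annotation assembled by the authors. There were 5 such genes among 62089 in the annotation, 4 among the 46063 assembled genes with values, and 4 among 91969 assembled transcripts. In the RefSeq table, which counts reads on known genes, 4 of 19100 rows carried a member name. It held no BN-Lx library and no SHR library of sequencing batch 1. The differences between SHR and BN-Lx given below are therefore known on the assembled annotation only. No assembled gene was named Rps18, and no RefSeq row was named Rpl37l1.

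The samples were total RNA libraries, depleted of ribosomal RNA, from untreated rats of the HXB/BXH panel and of both progenitors. The progenitors were the spontaneously hypertensive rat SHR/OlaIpcv (SHR) and the Brown Norway congenic BN-Lx/Cub (BN-Lx). Each of the 12 HXB strains (substrain Ipcv) and 9 BXH strains (substrain Cub) is an inbred mosaic of both progenitor genomes, and was represented by 1 library, so that a strain is the replicate and the spread within a strain is not known. Each progenitor had 4 animals in sequencing batch 1, while 6 strains (3 HXB and 3 BXH) were in batch 2 and 15 (9 HXB and 6 BXH) in batch 3, so that progenitors and strains were in different batches and are set side by side without a test. The values are log2 expression levels made by the authors. No counts were used here, so the depth is unknown.

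Ribosomal proteins are the protein part of the ribosome, and every growing or working cell makes them in near-equal amounts. Rpl37 encodes a zinc-binding protein of the large subunit. Rps18 and Rps20 encode proteins of the head of the small subunit, which helps to hold the transfer RNAs and the messenger RNA. Mammalian genomes hold many copies of these genes that arose from reverse-transcribed messenger RNA. Such retrocopies have no introns, and a short read from an exon can match the parent gene and the copy equally well. Messenger RNAs of ribosomal proteins usually begin with a C followed by a run of pyrimidines, through which their translation is controlled.

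The regions around the start of the parent genes Rpl37 and Rps18 are shown first because they carry this pyrimidine run. They are from RefSeq (assembly GRCr8) and run from 60 bases before the annotated start to 20 bases after it, 5′ to 3′ on the gene's strand. Rpl37 lies at chr2:55942885-55942964 on the + strand and Rps18 at chr20:4933685-4933764 on the + strand. The capitals mark the unbroken run of C and T that begins at the start site, 7 bases in Rpl37 and 9 bases in Rps18.
Rpl37: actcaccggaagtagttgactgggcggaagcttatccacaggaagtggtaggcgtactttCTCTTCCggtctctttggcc
Rps18: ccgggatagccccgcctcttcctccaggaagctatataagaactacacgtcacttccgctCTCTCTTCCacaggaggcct
A C at the start and a run of at least 5 pyrimidines, read on the gene's strand at the start site, were found in 881 of 33469 promoters (2.63%) and in 22 of 60 promoters of other ribosomal protein genes (36.7%). No entries were matched for Rpl37l1, Rps18l1 and Rps20.

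The assembled models fell into spliced genes and single exons. On genome build rn7 the measured Rpl37 gene (PRN7.71G0035148) lay at chr2:54215352-54217429 on the + strand, between Card6 and Prkaa1, with 4 exons and a spliced length of 490 bases. Rpl37l1 (PRN7.71G0163158) lay at chr10:61033797-61034168 on the + strand, as a single exon of 372 bases within an intron of Vps53, which is on the opposite strand. Rps18l1 (PRN7.71G0167192) lay at chr10:101204498-101205062 on the - strand, as a single exon of 565 bases between Sap30bp and Galk1. The gene named Rps20 (PRN7.71G0056679) lay at chr3:22430247-22430764 on the + strand, as a single exon of 518 bases between Psmb7 and Nr5a1. The fifth gene with a member name was a second Rpl37 gene (PRN7.71G0035150), a single exon of 158 bases inside the first one, and it had no row in the table of values.

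**Figure D1:**
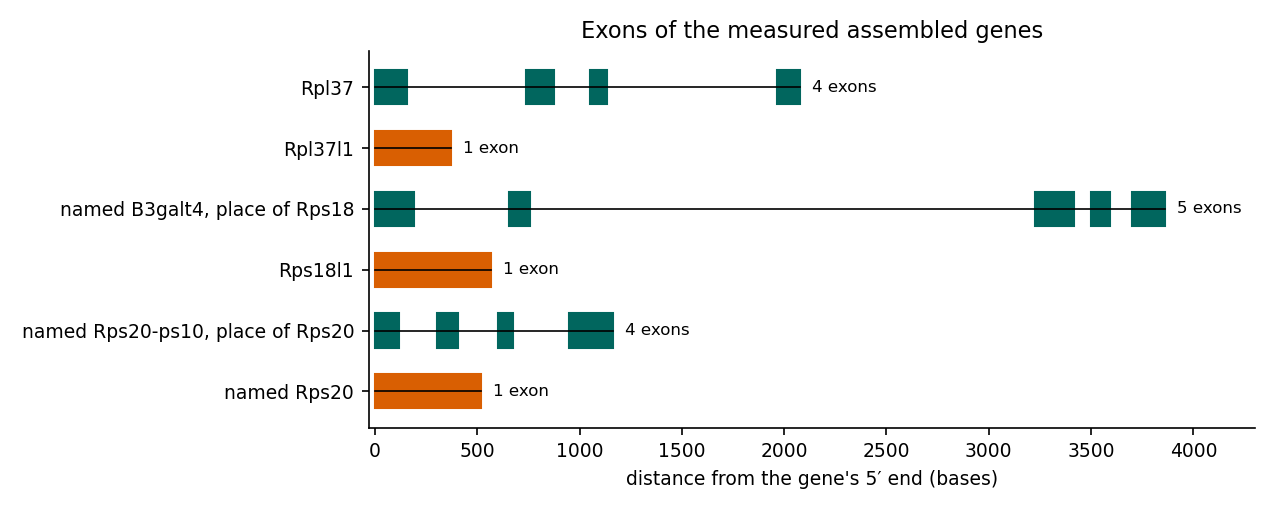
Exons (boxes) and introns (lines) of the assembled genes with values, drawn to scale from each gene's 5′ end in bases. Rpl37 and the genes at the places of Rps18 and Rps20 have 4, 5 and 4 exons, while Rpl37l1, Rps18l1 and the gene named Rps20 are single exons.

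Names and places did not always match. RefSeq lists Rps20 on chromosome 5 between Lyn and Mos, and the pseudogene Rps20-ps10 on chromosome 3 between Psmb7 and Adgrd2. In the assembled annotation the names were the other way round. The single exon on chromosome 3 was named Rps20, and a gene of 4 exons and 503 bases next to Lyn (PRN7.71G0090615, chr5:16819313-16820475, - strand) was named Rps20-ps10. RefSeq lists Rps18 on chromosome 20 between Vps52 and B3galt4, where the assembled annotation had a gene of 5 exons and 731 bases named B3galt4 (PRN7.71G0241863, chr20:4931718-4935579, + strand), which overlapped an exon of Vps52 on the opposite strand. Its level over the 21 strains was 12.21 to 13.38, against 5.48 to 6.22 for the RefSeq row of B3galt4 and 12.93 to 13.49 for the RefSeq row of Rps18. These genes are called the gene at the place of Rps20 and the gene at the place of Rps18 in what follows. Both were chosen after their values were seen. In the RefSeq table the row named Rpl37 followed the transcript NM_031106, which the RefSeq gene table assigns to Rpl37l1 on chromosome 10, with Rpl37 as a synonym. The median absolute difference between row and transcript was 1.16 on the log2 scale, and lay in the strains with low values. In batch 3 the high strains were at 11.70 to 12.08 for the row and 11.74 to 12.14 for the transcript. The low strains were at 6.81 to 6.98 and 5.40 to 5.79. For Rps18 and Rps20 and their RefSeq transcripts the median absolute difference was 0.03 and 0.02.

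Some facts of the libraries touch the results below. All 8 markers of ventricular cardiomyocytes were high in the RefSeq table, at 14.80 to 20.74 over the 21 strains. The summed level of 4 atrial markers ranged from 12.07 to 14 and that of 3 hepatocyte markers from 10.63 to 13.97. That of 3 erythroid markers was higher, at 17.41 to 18.84. The part of these markers' cells in the members' values was not tested. The mean of the added spike-in RNAs, in the table of assembled genes, was 7.36 to 8.33 in batch 3 BXH libraries and 6.40 to 7.05 in batch 3 HXB libraries. Libraries with the number of SHR replicate 4 were sequenced again in batch 2 and in batch 3. Only 1 of these 2 later libraries had values for the assembled genes. It gave 10.56 for Rpl37 against 11.94 in batch 1, and 5.90 for Rpl37l1 against 4.58.

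For the large subunit, Rpl37 was high where Rpl37l1 was low. Rpl37 was at 7.32, 6.67, 7.26 and 7.03 in BN-Lx and at 12.13, 12.06, 11.96 and 11.94 in SHR. Rpl37l1 was at 11.52, 11.21, 11.42 and 11.31 in BN-Lx and at 5.04, 5.06, 4.73 and 4.58 in SHR. The groups did not overlap for either gene. The mean of Rpl37 was 7.07 ± 0.29 (SD, n = 4) in BN-Lx and 12.02 ± 0.09 (SD, n = 4) in SHR, a log2 difference of 4.95 or 31.0-fold. The mean of Rpl37l1 was 11.37 ± 0.13 (SD, n = 4) in BN-Lx and 4.85 ± 0.23 (SD, n = 4) in SHR, a log2 difference of -6.51, or 91.2-fold in the other direction. The single transcripts of both genes differed by 6.83 and -9.17 in log2 values. Although each gene had 1 transcript, transcript minus gene ran from -2.41 to 0.79 for Rpl37 over 30 libraries. For Rpl37l1 it ran from -3.14 to 0.76. The size of a difference thus depended on which of these values was used, and the shares given below are from gene values only.

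The members' groups did not overlap in 4 of 4 genes and 4 of 4 transcripts. Over the whole tables the progenitors did not overlap in 20.6% of assembled genes and 15.8% of assembled transcripts, and limma called 14.3% of genes and 5.53% of transcripts at an adjusted p below 0.05. Since the members were picked from this contrast, nothing is read from their count.

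**Figure D2:**
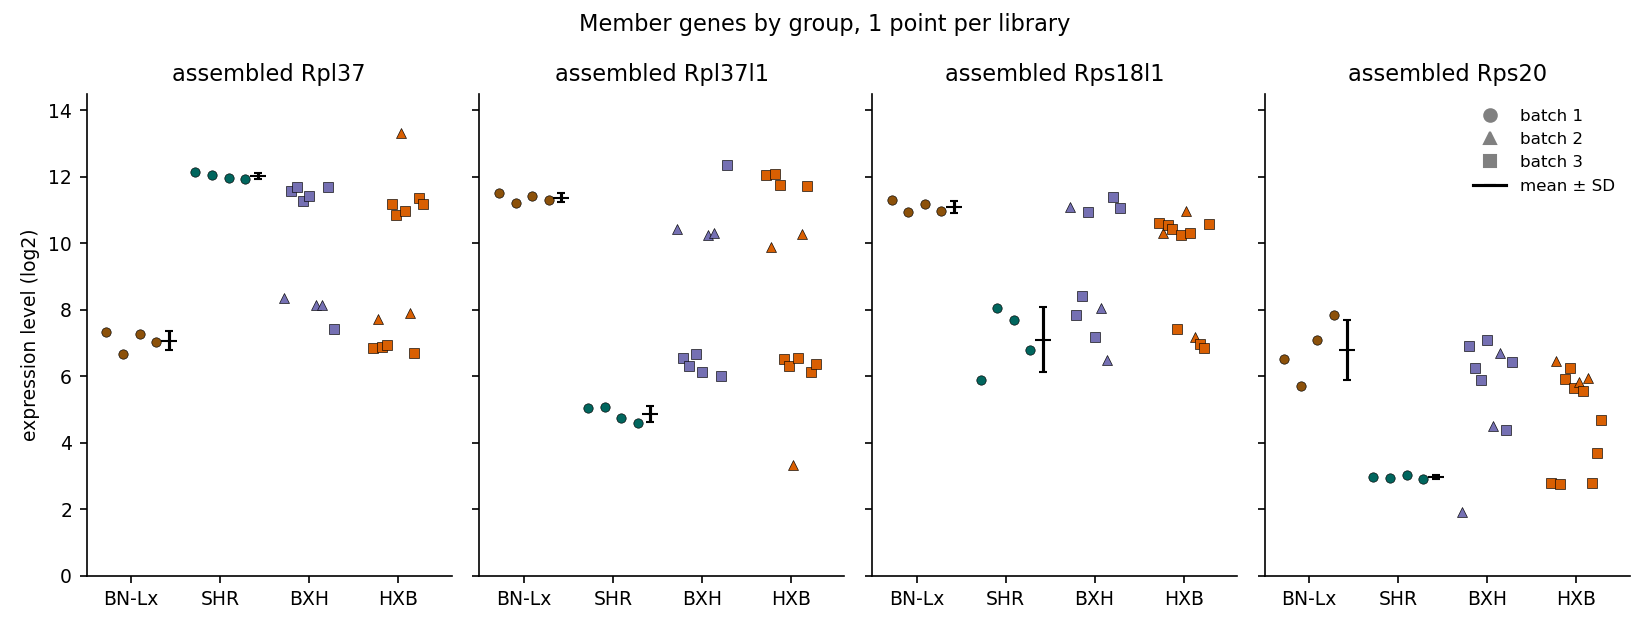
Expression level (log2) of the 4 assembled member genes, 1 point per library, in BN-Lx, SHR, BXH and HXB, with the shape giving the sequencing batch and the black bars the mean ± SD of the 4 progenitor libraries. The strains of Rpl37, Rpl37l1 and Rps18l1 form a high and a low set with both families in each, and those of Rps20 spread from 1.91 to 7.08.

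In the recombinant inbred strains the levels of Rpl37l1 fell into 2 sets. Ordered by level, the widest gap between neighbouring strains ran from 6.68 to 9.87, with 11 strains below it and 10 above. Of 46063 assembled genes, 46 (0.0999%) had a gap over 2 between neighbours, and of the 10046 with a mean over 8, 16 (0.159%) did. The members were picked from the progenitors of these strains, so the gap is not independent of that choice. The upper set was BXH5, BXH6, BXH9, BXH10, HXB1, HXB3, HXB13, HXB17, HXB20 and HXB31, which makes 6 of 12 HXB and 4 of 9 BXH strains. Within it, the 5 strains of batch 2 were at 9.87 to 10.44 and the 5 of batch 3 at 11.70 to 12.35, so the level also moved with the batch, and the part of the batch was not tested. In the lower set 10 strains of batch 3 were at 6.0 to 6.68, and HXB25, the only one of batch 2, was at 3.34.

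Rpl37 gave the mirror image. Its widest gap ran from 8.34 to 10.85, and each of the 21 strains was on the opposite side of the gap from its side for Rpl37l1. The low strains were at 7.73 to 8.34 in batch 2 and at 6.69 to 7.42 in batch 3. The high strains of batch 3 were at 10.85 to 11.70, and HXB25 stood at 13.30, the highest value of any library. Among the low strains of Rpl37l1 in batch 3, the 2 genes were related by a Spearman rho of -0.43 over 10 strains, given as a description of rows that share a library.

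**Figure D3:**
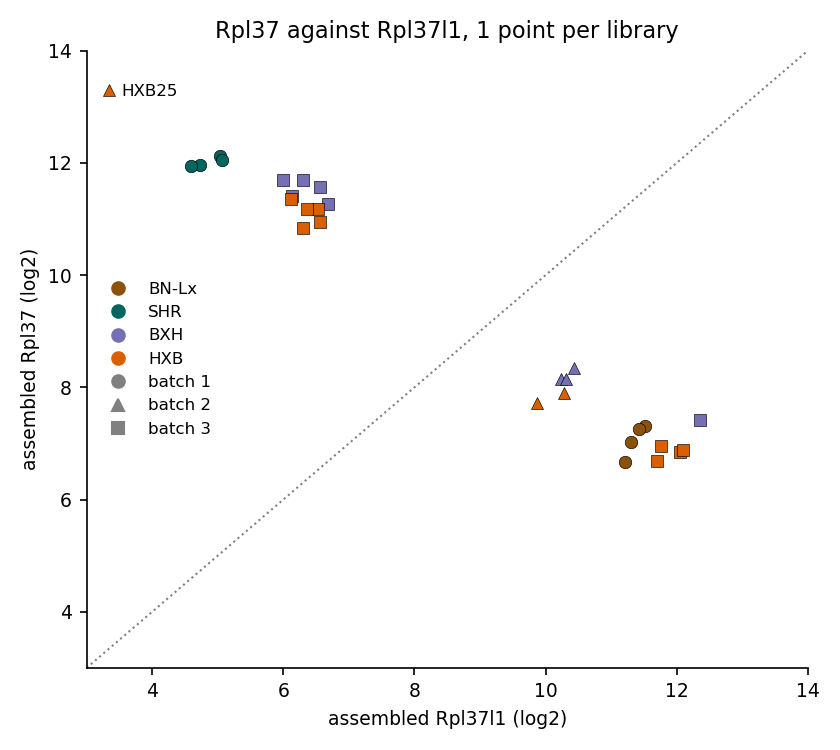
Level of assembled Rpl37 against assembled Rpl37l1 (both log2), 1 point per library, with the colour giving the group and the shape the batch. The dotted line marks equal levels, with SHR and 11 strains at the upper left and BN-Lx and 10 strains at the lower right.

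The strains were set beside the ranges of the progenitors. For Rpl37l1, 15 of 21 strains lay between the ranges of the progenitors, 5 above both and 1 below both. For Rpl37, 16 lay between the ranges and 1 above both. For Rps18l1, 10 lay between them and 1 above both, and for Rps20, 6 lay between them and 4 below both. The others were within the range of a progenitor. The later library of SHR replicate 4 with assembled values, at 10.56 for Rpl37 and 5.90 for Rpl37l1, also lay between the ranges of the batch 1 libraries. Whether the batch accounts for these offsets was not tested.

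When the values of Rpl37 and Rpl37l1 were unlogged, added and put back on the log2 scale, the difference between the progenitors was smaller than in either gene alone. The sum was 11.44 ± 0.14 (SD, n = 4) in BN-Lx and 12.03 ± 0.09 (SD, n = 4) in SHR, a log2 difference of 0.59, and the groups, at 11.27 to 11.59 and 11.95 to 12.14, still did not overlap. Rpl37l1 held 94.7 to 95.9% of the sum in BN-Lx and 0.606 to 0.779% in SHR. Divided by the spliced lengths before adding, its share was 95.9 to 96.9% in BN-Lx and 0.797 to 1.02% in SHR. Reads shared by the 2 genes could be assigned to either by the authors' counting, and how they were split is not given in the sources used here.

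Over the strains the sum still ranged from 10.16 to 13.30, with a median of 11.39. The lowest and highest values were both of batch 2. In the 15 strains of batch 3 it ranged from 10.91 to 12.40. There the strains high for Rpl37l1 were at 11.75 to 12.40 and those low for it at 10.91 to 11.73, so the sum itself did not overlap between the sets. The strains of batch 2 that were high for Rpl37l1 had the smallest sums, at 10.16 to 10.74, whereas HXB25 had the largest, at 13.30. The share of Rpl37l1 was 80.9 to 83.9% in the former, 96.6 to 97.4% in the high strains of batch 3, 1.88 to 4.52% in the low strains of batch 3 and 0.1% in HXB25.

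**Figure D4:**
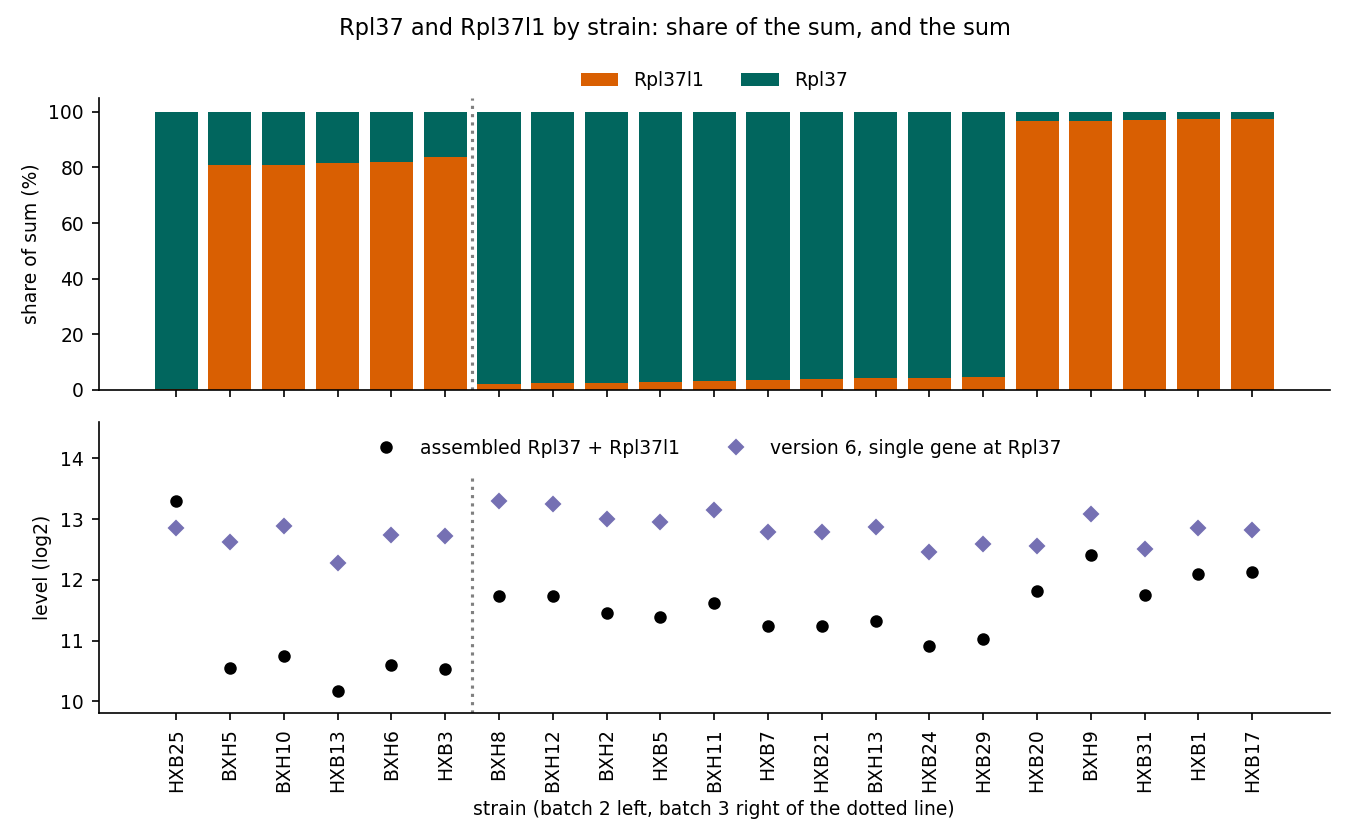
Upper panel, share (%) of Rpl37 and Rpl37l1 in their unlogged sum for each strain, as stacked bars from 0 to 100. Lower panel, log2 of that sum (circles, 10.16 to 13.30) and the level of the version 6 assembled gene on the strand of Rpl37 (diamonds, 12.28 to 13.29), with batch 2 to the left of the dotted line and batch 3 to the right.

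The level that a strain showed depended on the set of genes on which its reads were counted. The RefSeq row named Rpl37 had its widest gap from 6.98 to 10.22 and put 21 of 21 strains on the same side as assembled Rpl37l1, so that it ran against the assembled gene of its own name in every strain. Assembled Rpl37l1 minus this RefSeq row was -1.99 to 0.46 on the log2 scale. The RefSeq transcript NM_031106 was at 3.85 to 12.14, with a gap from 5.79 to 9.95 and the same 2 sets. In the low set of the row named Rpl37, HXB25 of batch 2 was at 5.33 and the 10 strains of batch 3 at 6.81 to 6.98. The 2 later libraries of SHR replicate 4 were at 5.24 and 6.86 for this row. For NM_031106 they were at 3.89 and 5.45, beside 3.85 in HXB25 and 5.40 to 5.79 in the 10 strains. The part of the batch in these values was not tested. No rows were found for the RefSeq transcripts of Rpl37 on chromosome 2.

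An older version of the tables, version 6, had been made by the authors from the same strains, without BN-Lx and without the batch 1 libraries of SHR. It held the genes of Ensembl, a public gene annotation, and a separate assembly, whose exons were found with the same coordinates in version 7.1 in 49.1% of cases (175537 of 357460). In the Ensembl table Rpl37l1 was at 10.15 to 12.58 and Rpl37 at 7.94 to 12.11, and Rpl37 put 21 of 21 strains on the same side as assembled Rpl37 did. Their sum ranged from 11.82 to 12.66. In batch 3 this sum was 11.82 to 12.11 in the strains low for assembled Rpl37l1 and 12.33 to 12.66 in the high strains, which did not overlap. In batch 2 the high strains were at 11.86 to 12.16 and HXB25 at 12.44. The share of Rpl37l1 in the Ensembl sum was 20.46% in HXB25, 47.89 to 55.02% in the low strains of batch 3 and 86.53 to 95.63% in the high strains. In the version 6 assembly 1 gene overlapped Rpl37 on its own strand, another overlapped it on the opposite strand, and none overlapped Rpl37l1. The level of the gene on the strand of Rpl37 was 12.28 to 13.29, without sets. The range over the strains was thus 9.02 for assembled Rpl37l1, 3.14 for the sum, 0.835 for the Ensembl sum and 1.02 where no copy was assembled.

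**Figure D5:**
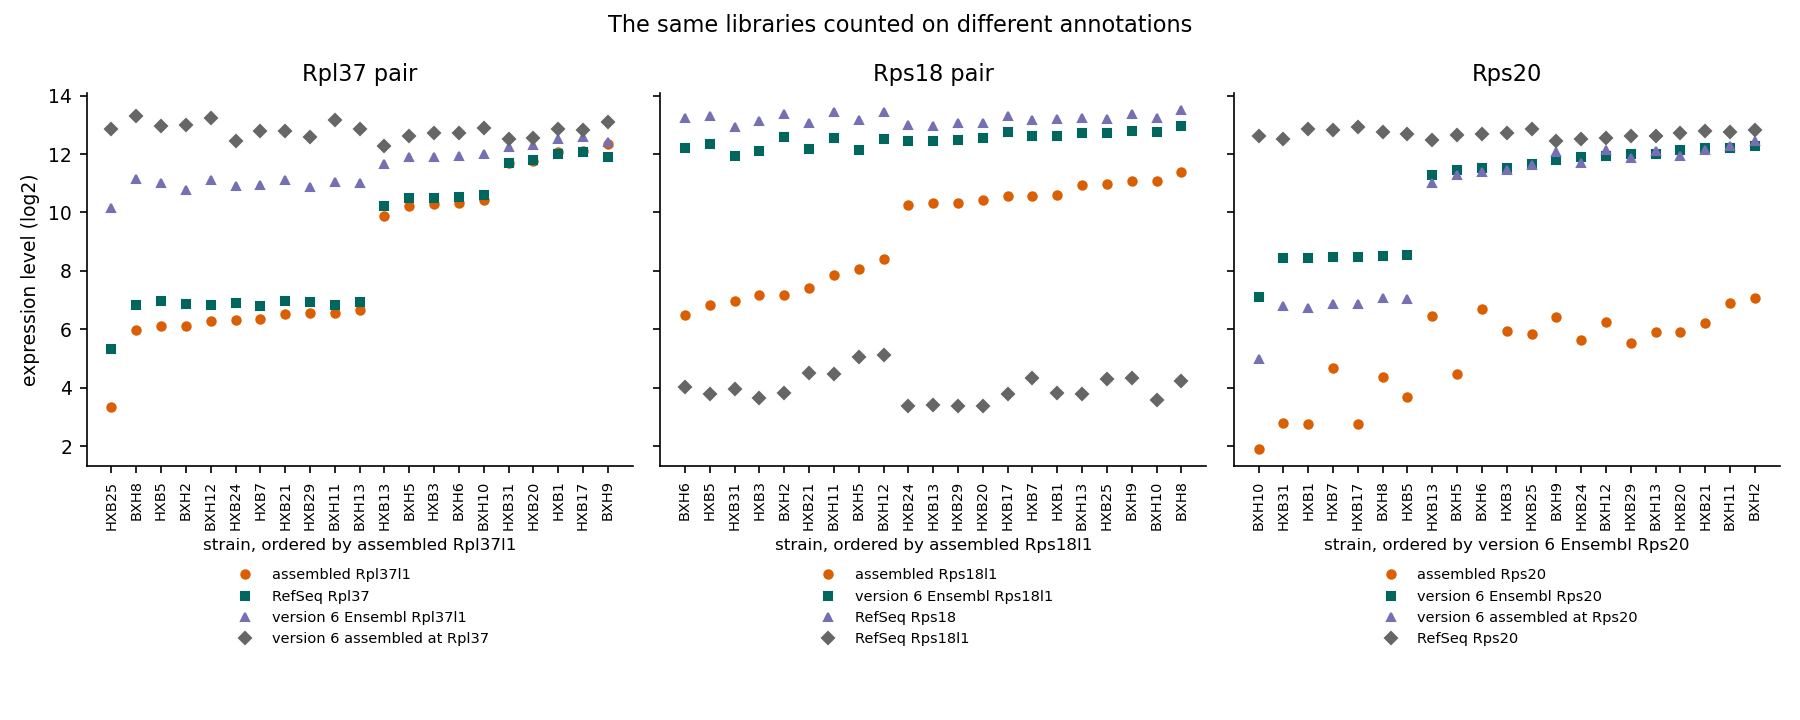
Expression level (log2) of each of the 21 strains for the Rpl37 pair, the Rps18 pair and Rps20, counted on different annotations of the same reads, with strains ordered by the measure named on each x axis. The 2 sets of strains are wide apart in some annotations and absent in others, for example 3.34 to 12.35 for assembled Rpl37l1 and 12.28 to 13.29 for the version 6 assembled gene at Rpl37.

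In the small subunit, Rps18l1 was higher in BN-Lx. It was at 11.31, 10.95, 11.17 and 10.95 in BN-Lx and at 5.88, 8.05, 7.67 and 6.79 in SHR, so the groups did not overlap and SHR was spread more widely. The means were 11.09 ± 0.18 (SD, n = 4) and 7.1 ± 0.97 (SD, n = 4), a log2 difference of -3.99 or 15.9-fold. The transcript differed by -5.22. The gene at the place of Rps18 was at 12.49, 12.09, 12.43 and 12.27 in BN-Lx and at 13.20, 12.98, 12.78 and 12.90 in SHR. It was higher in SHR by 0.64 and did not overlap either. The sum of both was 12.83 ± 0.17 (SD, n = 4) in BN-Lx and 12.99 ± 0.16 (SD, n = 4) in SHR. Rps18l1 made up 28.6 to 31.2% of it in BN-Lx and 0.624 to 3.19% in SHR.

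Over the strains Rps18l1 ranged over 4.91 on the log2 scale, with its widest gap from 8.41 to 10.26. The lower set was BXH2, BXH5, BXH6, BXH11, BXH12, HXB3, HXB5, HXB21 and HXB31, and the upper set held 8 of 12 HXB and 4 of 9 BXH strains. The batches overlapped within the sets, with low strains at 6.48 to 8.05 in batch 2 and 6.85 to 8.41 in batch 3, and high strains at 10.32 to 11.08 and 10.26 to 11.39. The sets were not those of Rpl37l1, with which they shared the side in 11 of 21 strains, although both copies lie on chromosome 10. The share of Rps18l1 in its sum with the gene at the place of Rps18 was 18.7 to 26.0% in high strains and 1.1 to 3.44% in low strains, and the sum ranged from 12.56 to 13.47.

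The RefSeq rows did not show these sets. RefSeq Rps18 was at 12.93 to 13.45 in the strains low for Rps18l1 and at 12.95 to 13.49 in those high for it, which overlapped. RefSeq Rps18l1 was at 3.37 to 5.13 in all strains, far below the assembled gene of the same name. In the version 6 tables the Ensembl gene Rps18l1 was at 11.92 to 12.57 in the low strains and at 12.43 to 12.95 in the high strains, and the assembled gene at its place was at 1.59 to 5.42. Within the sets of batch 3, assembled Rps18l1 and the gene at the place of Rps18 were ordered alike, with a Spearman rho of 0.71 over 6 low strains and 0.90 over 9 high strains. Between the sets of both batches the order was the other way. The gene at the place of Rps18 had a median of 12.97 (12.53 to 13.38) in strains low for Rps18l1. In those high for it the median was 12.55 (12.21 to 13.11), with overlap. The rows share their libraries and may share reads.

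The single exon named Rps20 was low in all libraries beside the spliced gene at the place of Rps20. It was at 6.51, 5.72, 7.07 and 7.83 in BN-Lx and at 2.97, 2.94, 3.03 and 2.90 in SHR. The means were 6.78 ± 0.89 (SD, n = 4) and 2.96 ± 0.05 (SD, n = 4), a log2 difference of -3.82 or 14.1-fold, and the transcript differed by -4.76. The gene at the place of Rps20 was at 12.87, 12.46, 12.77 and 12.52 in BN-Lx and at 12.53, 12.58, 12.27 and 12.35 in SHR, so its groups overlapped. The single exon made up 0.926 to 3.73% of their sum in BN-Lx and 0.125 to 0.165% in SHR. Divided by spliced length, its mean log2 level was 7.73 in BN-Lx against 13.65 for the spliced gene.

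Among the strains the assembled values of Rps20 had no wide gap: the widest, 0.88, ran from 2.80 to 3.68. In version 6 they did. The Ensembl gene Rps20 had a gap from 8.56 to 11.30, with BXH8, BXH10, HXB1, HXB5, HXB7, HXB17 and HXB31 below it and 14 strains above. The version 6 assembled gene at the same place had a gap from 7.06 to 11.02 and the same sets in 21 of 21 strains. In version 7.1 the strains low in version 6 were at 1.91 to 4.67 and the others at 4.49 to 7.08.

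Counted on RefSeq, Rps20 varied little. It was at 12.44 to 12.93 over the strains, and the gene at the place of Rps20 was at 12.25 to 12.89, within -0.23 to 0.19 of it. In the version 6 assembly the gene there was at 1.08 to 3.07 in all strains, while that on chromosome 3 was at 11.02 or more in 14 strains and at 7.06 or less in the other 7. The single exon made up 0.0624 to 1.78% of the version 7.1 sum.

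The families HXB and BXH come from reciprocal crosses, and this comparison was not used to pick the members. None of the 4 member genes passed the test between them in limma with batch as a covariate and Benjamini-Hochberg adjustment over all genes. Of all assembled genes 27.9% were called, of transcripts 17.8% and of RefSeq genes 36.3%. HXB minus BXH was -0.73 (SE 0.85, limma adjusted p = 0.538) for Rpl37, 0.32 (SE 1.11, adjusted p = 0.854) for Rpl37l1, 0.18 (SE 0.72, adjusted p = 0.875) for Rps18l1 and -0.70 (SE 0.63, adjusted p = 0.416) for Rps20. Each family held strains of the high and of the low set, and the standard errors were 0.63 to 1.11. The 4 transcripts gave adjusted p-values of 0.453 to 0.909 in limma. In the 15 strains of batch 3 alone, Rps20 was lower in HXB by -1.71 on the log2 scale, with a limma adjusted p of 0.0303. That fit called 34.9% of all assembled genes. An exact permutation test of Rps20 on the same strains gave p = 0.03, or 0.0899 adjusted over the 3 sums. In batch 2 the difference was in the other direction, at 1.72, with 6.47, 5.84 and 5.94 in HXB and 6.69, 4.49 and 1.91 in BXH, which overlap. With 3 strains a family the exact permutation p was 0.4 there, and 0.1 is the smallest it can give. The signs of Rpl37 (1.43) and Rpl37l1 (-2.50) in batch 2 were also opposite to those over both batches, and neither passed the limma test (adjusted p = 0.776 and 0.719).

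The spliced small-subunit gene did differ. RefSeq Rps18 was at 13.11 ± 0.12 (SD, n = 12) in HXB and 13.33 ± 0.11 (SD, n = 9) in BXH, a difference of -0.23 (SE 0.05, limma adjusted p = 0.00193). The assembled gene at the place of Rps18 was at 12.57 ± 0.27 and 13.02 ± 0.26 in the same strains, a difference of -0.46 (SE 0.11, limma adjusted p = 0.00363). Within batch 3 the differences were -0.28 and -0.55, and both passed in limma (adjusted p = 0.00261 and 0.00278), where 35.5% of RefSeq and 34.9% of assembled genes were called. Within batch 2 they were -0.11 and -0.25, and neither passed (adjusted p = 0.714 and 0.754). Centring the libraries on the spike-in RNAs turned both around, to 0.34 and 0.43, and both passed as higher in HXB (limma adjusted p = 0.00668 and 0.0194). With this scaling 92.9% of all RefSeq genes and 89.3% of all assembled genes were called. It moved the median of all genes from 0.11 to 1.00 in the assembled table and from -0.01 to 0.56 in the RefSeq table. Relative to all genes, both stayed lower in HXB. RefSeq Rps18l1 (-0.47, limma adjusted p = 0.056) and RefSeq Rps20 (0.05, limma adjusted p = 0.548) did not pass, nor did the RefSeq row named Rpl37 (0.46, limma adjusted p = 0.736). The version 6 assembled gene on the strand of Rpl37 was lower in HXB by -0.33 (SE 0.08, limma adjusted p = 0.00712). Of all version 6 assembled genes 25.5% were called. The version 6 Ensembl genes Rpl37 (-0.26, limma adjusted p = 0.726) and Rpl37l1 (0.05, limma adjusted p = 0.918) did not pass.

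The sums were compared with exact permutation tests of the family labels within batch, two-sided, over 100100 regroupings. The sum of Rpl37 and Rpl37l1 was 11.47 ± 0.83 (SD, n = 12) in HXB and 11.35 ± 0.62 (SD, n = 9) in BXH, with an exact permutation p of 0.819. Over the 3 sums tested, this was also the adjusted value. Rps18l1, which has no assembled partner of the name Rps18, gave a difference of 0.21 (exact permutation p = 0.787, adjusted 0.819), and Rps20 one of -0.70 (exact permutation p = 0.332, adjusted 0.819). With the gene at the place of Rps18 added, the Rps18 sum was lower in HXB by -0.40 (exact permutation p = 0.00031, adjusted 0.000619), at 12.80 ± 0.19 against 13.20 ± 0.21. The Rps20 sum with the gene at its place added differed by -0.11 (exact permutation p = 0.152, adjusted 0.152). These adjusted values cover only the Rps18 and Rps20 sums with such a gene added. Both sums were added after the data had been seen.

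Among other ribosomal protein genes, more were called lower in HXB than higher on the deposited scale. Of 86 assembled genes with 56 symbols, limma called 46 lower and 3 higher in HXB, which is 57.0% of the list and 27.9% of all genes, with a median difference of -0.34 against 0.11 over all genes. Rpl14, of the large subunit, differed by -0.49 (SE 0.08, limma adjusted p = 0.000795), and the row named Rps29, of the small subunit, by -0.78 (SE 0.13, limma adjusted p = 0.000815). This row was assembled over chr6:87635229-87839964, and whether its level is that of Rps29 alone was not tested. With spike-in centring the split became 0 lower and 64 higher, and the median 0.55 against 1.00 over all genes, so that the list stayed 0.45 below all genes. With quantile normalization it was 33 lower and 4 higher. In batch 2 alone none of the 86 was called and the median was -0.10 against -0.01, but only 6 of all assembled genes were called there, with 3326 at an unadjusted p below 0.05. In RefSeq 34 of 73 genes were called lower and 9 higher (58.9%, and 36.3% of all RefSeq genes), led by Rps15 (-0.46, limma adjusted p = 0.00035) and Rpl18 (-0.34, limma adjusted p = 0.000463), and with spike-in centring 1 was lower and 66 higher.

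Of 35 assembled rows named as copies, limma called 5 lower in HXB and 1 higher, which is 17.1% of the list and 27.9% of all genes, with a median of -0.12. The difference between these shares was not tested. The smallest p-values were those of Rps28-ps1 (-0.95, limma adjusted p = 0.0014) and Rps27a-ps1 (-0.25, limma adjusted p = 0.0173). In RefSeq 2 of 16 were called lower and 1 higher (18.8%, and 36.3% of all RefSeq genes), led by Rpl27-l1 (-0.38, limma adjusted p = 0.0145) and Rps19l2 (-0.17, limma adjusted p = 0.0264). With spike-in centring, 28 assembled copies were higher and 0 lower. The rule by names also took Rps6kl1, a kinase-like gene that is no ribosomal protein.

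The range over the strains on the log2 scale, which is not independent of how the members were picked, was 6.61 for Rpl37, 9.02 for Rpl37l1, 4.91 for Rps18l1 and 5.17 for Rps20. The median range was 1.27 in other ribosomal protein genes and 1.74 in copies, and 3 of 86 and 2 of 35 ranged over more than 4. Of all assembled genes 0.862% did.

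The genes most like each member over the 21 strains were taken from 21632 named assembled genes, by Spearman rho after subtracting the mean of each batch. For Rpl37 they were Tmcc2 (0.89), Lgals5 (0.87) and Plpp4 (0.86), and the most opposite were Rpl37l1 (-0.89), Artn (-0.85) and Mapk8 (-0.85). For Rpl37l1 they were AABR07052523.2 (0.78), Sf3b6 (0.75) and Ebf1 (0.72), and the most opposite Rpl37 (-0.89), Plpp4 (-0.79) and Lgals5 (-0.78). Lgals5, a galectin, lies on chromosome 10 at a distance of 2.82 Mb from Rpl37l1, while Ebf1 is on the same chromosome and farther away. For Rps18l1 they were Pdk4 (0.77), a kinase that turns down pyruvate dehydrogenase, LOC120098897 (0.74) and Dzip3 (0.73), with Trim33 (-0.82), Rassf3 (-0.72) and Hspa1b (-0.72) opposite. For Rps20 they were Nt5c1a (0.82), Kti12 (0.77) and Dido1 (0.76), with Plekhh2 (-0.73), Ndufs5-ps2 (-0.70) and Cep85l (-0.70) opposite. These are the extremes of many coefficients over 21 strains and are given with no test.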

How the data were processed

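Left ventricle RNA libraries were analysed from the tables of log2 values deposited by the authors, 1 column per library. According to notes of the submitters on processing, the tools were RSEM 1.3.1, StringTie 1.3.5, HISAT2 2.1.0, Bowtie2 2.3.4.3, DESeq2 and cutadapt 1.9.1, listed without roles, and the build was rn7. The sources used here do not give the normalization, any batch adjustment, the handling of reads that match several places or the depth, so no counting interval is given. Exon coordinates deposited by the authors are 1-based.

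Members and lists were chosen with earlier results of these data known. Every gene and transcript of the 5 names was used, and where a name had several genes, that of the highest mean over the 8 progenitor libraries and no second name stood for it. Named beside them were the 3 genes with the highest and the 3 with the lowest rho per member, and the 2 of smallest p per list. Other ribosomal protein genes and copies were taken by the form of their symbols.

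HXB and BXH were compared with limma 3.58.1 in R 4.3.3 (lmFit, eBayes with intensity trend, batch as covariate, two-sided, Benjamini-Hochberg, threshold 0.05) over all rows other than spike-ins. SHR and BN-Lx were fitted on the 8 libraries of batch 1 for the share of all genes called. Sums were made from values unlogged as 2 to the power of the value, and tested with exact permutations (Python 3.11.15, numpy 2.4.6, scipy 1.17.1, pandas 2.3.3; figures with matplotlib 3.10.9). The fits were tested on simulated data. The labels do not say whether progenitor animals share a litter, so the SD covers the animals sampled. Of 31 samples in the labels, 30 were in the assembled tables. Columns of the later SHR replicate 4 libraries do not tell batch 2 from batch 3, and in the fits they entered only an alternative.

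Alternatives covered the batch term, batch 3 alone, normalization, spike-in centring, low values (mean over 5), the intensity trend, left-out animals, a replicate block, the later SHR library and the way sums were made. The version 6 tables, the places of Rps18 and Rps20, batch 2 alone and spike-in centring for the progenitors were added after seeing the data.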

Additional observations from a re-analysis of the deposited data

How the results depend on the processing

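How reads that match several places were assigned is not given, and with 1 library per strain no error within a strain can be given. Alternatives were counted for the member genes, their transcripts and the genes at the places of Rps18 and Rps20. Between HXB and BXH the RefSeq rows of the member names were counted as well. There 73 kept direction and side of the threshold, 18 turned, 3 newly passed it without turning and 2 no longer passed. Of the sums 16 kept both and 4 turned. Between SHR and BN-Lx, 130 alternatives of these genes and transcripts moved by less than the spread, 7 moved further and 1 turned, and of the sums 31, 3 and 1. The causes were not tested.

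With spike-in centring, limma called 41140 assembled genes (12871 without), 68694 transcripts (16414) and 17750 RefSeq genes (6940) between the families, and 18446 genes (6603) and 17162 transcripts (5083) between the progenitors. It turned HXB minus BXH to 0.16 for Rpl37, 0.19 for Rps20, 0.17 for the Rps20 transcript, 0.77 and 0.43 for the genes at the places of Rps20 and Rps18, 0.34 for RefSeq Rps18 and 0.09 for RefSeq Rps18l1, and SHR minus BN-Lx to 0.45 for the gene at the place of Rps20. RefSeq Rps20 passed the threshold at 0.62 (limma adjusted p = 7.21e-05). Among the turned values, those of the genes at the places of Rps20 and Rps18 passed as higher in HXB (limma adjusted p = 0.000149 and 0.0194). RefSeq Rps18 did so too (limma adjusted p = 0.00668), and the other values turned between the families did not pass. With this scaling 89.3% of all assembled genes and 92.9% of all RefSeq genes were called between the families. Quantile normalization gave 0.03 for the gene at the place of Rps20 and took RefSeq Rps18l1 past the threshold, at -0.49 (limma adjusted p = 0.0495). In batch 2 alone, limma called 6 assembled genes, 35 transcripts and 0 RefSeq genes (1561 at an unadjusted p below 0.05). HXB minus BXH turned there to 1.43 for Rpl37, -2.50 for Rpl37l1, 1.72 for Rps20 and its sum, 0.02 for the gene at the place of Rps20, -1.86 for the RefSeq row named Rpl37, and 1.65, -3.54 and 2.14 for the transcripts of Rpl37, Rpl37l1 and Rps20. In batch 3 alone, Rps18l1 was at -0.14 and its transcript at -0.28, and the sum of Rpl37 and Rpl37l1 was at -0.20 and the Rps18 sum, which is Rps18l1 alone, at -0.14. Adding the genes at the places of Rps18 and Rps20 made the sums -0.40 for Rps18 between the families, and 0.16 for Rps18 and -0.25 for Rps20 between the progenitors, where the transcript table gave -5.22 and -4.76.

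The replicate numbers did not pair the progenitor libraries, with correlations of same-numbered deviations of -0.118 to 0.082. With the replicate block, limma called 5437 genes and 1893 transcripts. Leaving out 1 animal at a time gave 4377 to 6114 genes, the fewest without SHR replicate 4, and 3018 to 3722 transcripts, also fewest without it. The sums then differed by 0.54 to 0.65 for Rpl37, -4.31 to -3.59 for Rps18 and -4.17 to -3.47 for Rps20. Some low rows, such as RefSeq Rps18l1, had no value where a mean over 5 was required.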
